A study of Rattus norvegicus with 24 samples.

Results

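The nuclear factor I (NFI) family comprises the 4 genes Nfia, Nfib, Nfic and Nfix, which were matched by symbol in the deposited expression table and were all 4 found among its 12187 genes. The 6 RNA-seq libraries came from Sprague-Dawley rat neural cells in 3 groups of 2. They were neural stem cells differentiated in the presence of vitamin C (VC+), neural stem cells differentiated without it (VC-), and the undifferentiated neural stem cells (D0). Among VC+ and VC- libraries, replicate 1 is marked D4 and replicate 2 is marked D5. The labels used here name no genotype, vitamin C dose or animal age. They also leave unsaid whether the replicates came from different cultures or animals, and p-values therefore cover the spread between these libraries only. That spread may be technical in part, and it includes the marker differences between the replicate sets given below. The series also labels 1 chromatin immunoprecipitation library with an antibody named NF1 for VC+ cells and 1 for VC- cells, which were not analysed here.

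NFI proteins bind DNA as dimers through a conserved amino-terminal domain and recognise a palindrome in which a TTGGC element is followed, after 5 free bases, by its reverse complement, and more weakly a single element. In the mouse and chick nervous system, Nfia and Nfib start the switch of progenitors to glial fates, and Nfix acts in the later maturation and quiescence of stem cells. Nfic is best known from tooth root formation in the mouse. Because the 4 proteins share their DNA-binding domain, they can occupy the same sites, and astrocyte genes such as Gfap and Fabp7 are classic NFI targets. A question posed by these libraries is whether the NFI genes themselves differ in expression when stem cells differentiate, and whether vitamin C alters them.

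The promoter windows of Nfib and Nfix are printed because these are the members whose levels in differentiated cells and stem cells did not overlap, in opposite directions. Each is the 250 bases before the annotated start in RefSeq (GRCr8 build, gene strand, 5′ to 3′), and CpG dinucleotides, where DNA methylation occurs, are in capitals. The Nfib window lies at chr5:102019946-102020195 on the minus strand and the Nfix window at chr19:40260089-40260338 on the plus strand.
Nfib: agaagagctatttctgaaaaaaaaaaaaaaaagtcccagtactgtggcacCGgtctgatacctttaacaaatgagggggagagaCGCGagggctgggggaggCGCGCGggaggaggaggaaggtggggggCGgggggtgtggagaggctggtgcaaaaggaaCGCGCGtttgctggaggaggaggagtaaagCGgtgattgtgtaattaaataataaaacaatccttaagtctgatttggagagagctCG
Nfix: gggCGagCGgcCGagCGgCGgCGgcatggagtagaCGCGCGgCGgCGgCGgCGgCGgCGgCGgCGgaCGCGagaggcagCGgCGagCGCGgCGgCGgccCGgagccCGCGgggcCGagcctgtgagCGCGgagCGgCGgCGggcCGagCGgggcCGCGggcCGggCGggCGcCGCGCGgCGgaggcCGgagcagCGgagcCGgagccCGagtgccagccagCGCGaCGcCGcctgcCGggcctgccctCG
The Nfib window held 12 CpG and was 51.2% G and C, and the Nfix window held 55 CpG and was 86.8% G and C. The Nfia and Nfic windows held 36 and 25 CpG. Across all 33469 promoter windows of the same length the median was 5.0 CpG. Fewer CpG than in the Nfib window were found in 68.5% of windows, fewer than in the Nfic window in 90.3% and fewer than in the Nfia window in 97.8%. None of the 4 held the palindrome or a TTGGC element on either strand within these 250 bases. A TTGGC element on either strand was present in 40.3% of all windows, and the palindrome, whose elements are counted there too, in 0.0359%.

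Expression is given in CPM, the reads of a gene scaled by the authors to the size of its library. Whether that size was the raw total or an adjusted one is not given in the sources used here. A read count could be recovered for every value. The libraries held between 4811094 and 13184601 recovered reads in listed genes, and each replicate 2 library was deeper than each replicate 1 library. The NFI genes were covered by 123 to 1826 reads each per library. CPM is not corrected for transcript length, so levels are compared across libraries for 1 gene and not between genes. The authors' read counter is not given in the sources used here, and how far reads from the conserved domain could be split between members was not tested.

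The 2 replicate sets differed in genes that mark other cell types. Summed microglia markers (10 genes, including Csf1r and C1qa) were 4.41 to 4.50 CPM in the 3 replicate 1 libraries, with 3 to 7 of the 10 at 0, and 270 to 721 CPM in the replicate 2 libraries. Summed fibroblast and meningeal markers (9 of 10 listed genes found, Col1a1 and Col3a1 the most abundant) were 181 to 323 CPM against 3973 to 10302 CPM. Oligodendrocyte lineage markers (10 genes, Mbp and Cnp the most abundant) summed to 8244 CPM in VC+ and 10525 CPM in VC- cells of replicate 1, but to 791 and 1008 CPM in replicate 2, against 547 and 395 CPM in D0. Endothelial markers (7 of 8 found, Vwf and Kdr the most abundant) summed to 3.91 to 8.23 CPM in replicate 1 and to 23.5 to 54.5 CPM in replicate 2. Neural stem cell markers (9 genes, Vim and Sox2 the most abundant) summed to 1393 to 2455 CPM in replicate 1 and to 4222 to 4968 CPM in replicate 2. Most of each replicate 2 sum was Vim, at 560 to 1304 CPM in replicate 1 and 3370 to 3930 CPM in replicate 2. Sox2 went the other way, at 363 to 455 CPM in replicate 1 and 332 to 343 CPM in replicate 2. Neuron markers (10 genes, Map2 and Gap43) summed to 487 to 672 CPM in all 6. Astrocyte markers (10 genes, Apoe and Sparcl1) summed to 8664 and 13440 CPM in VC+, 2987 and 8862 CPM in VC-, and 1846 and 5092 CPM in D0. In such bulk samples fewer cells of a type and less RNA per cell cannot be told apart.

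Nfia, which initiates gliogenesis in the mouse and chick spinal cord, was the steadiest member. It stood at 65.0 and 53.4 CPM in VC+ cells, at 62.0 and 58.0 CPM in VC- cells and at 74.7 and 60.8 CPM in D0 (replicate 1, then replicate 2). The groups overlapped throughout, and in each group replicate 2 was the lower library. Its highest library exceeded its lowest 1.40-fold, and 89.4% of the 11823 genes tested spanned a wider range on the log2 scale. Genes were tested if they reached 1 CPM in at least 2 libraries, which all 4 members did.

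Nfib, the member with the widest range, was lower in differentiated cells than in stem cells. It stood at 35.5 and 15.1 CPM in VC+ cells, at 26.5 and 17.4 CPM in VC- cells and at 52.8 and 36.2 CPM in D0. Both stem cell libraries lay above all 4 differentiated libraries, though by only 0.7 CPM between D0 replicate 2 and VC+ replicate 1. Of all genes tested, 13.2% were separated and lower in VC- cells than in D0, and 13.2% in VC+ cells. The share with both was not counted. In every group replicate 2 was lower, at 0.425, 0.655 and 0.685 times replicate 1 in VC+, VC- and D0.

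Nfic differed most between the replicate sets. It stood at 19.2 and 34.7 CPM in VC+ cells, at 21.2 and 36.5 CPM in VC- cells and at 15.5 and 26.9 CPM in D0. Replicate 2 exceeded replicate 1 by 1.80, 1.72 and 1.74 times in the 3 groups, and the groups overlapped. Within each replicate, both differentiated libraries were above the stem cell library.

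Nfix, which in the mouse regulates stem cell quiescence and neuronal maturation, was higher in differentiated cells. It stood at 101.7 and 85.5 CPM in VC+ cells, at 87.7 and 83.5 CPM in VC- cells and at 67.6 and 68.1 CPM in D0. All 4 differentiated libraries lay above both stem cell libraries, which differed from each other by less than 1%. Of all genes tested, 13.8% were separated and higher in VC- cells than in D0, and 14.2% in VC+ cells. The share with both was not counted here either. VC+ and VC- libraries overlapped.

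**Figure D1:**
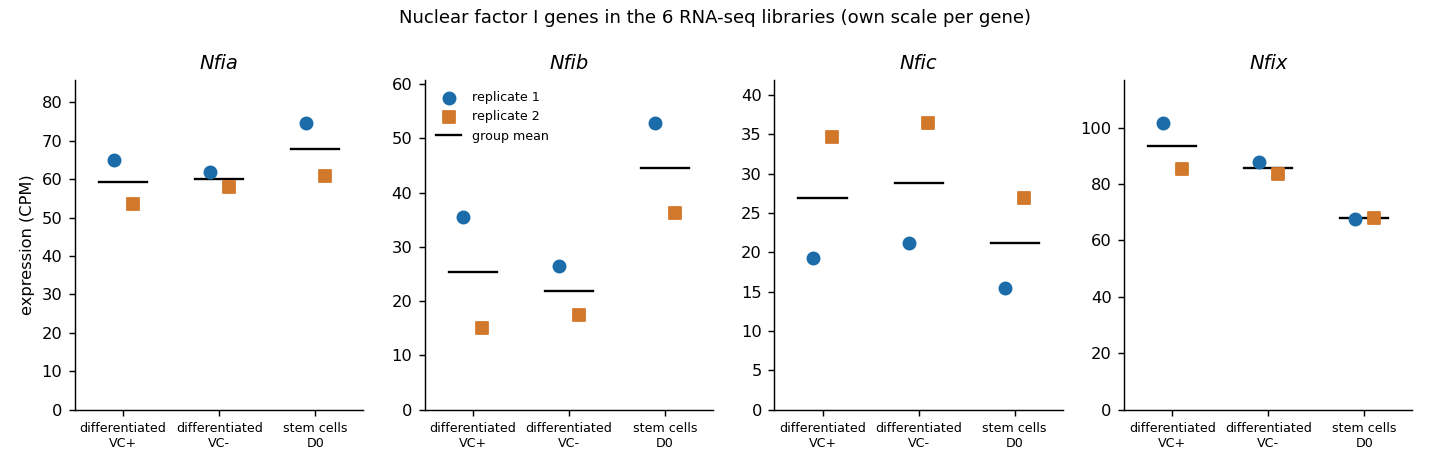
Expression of the 4 NFI genes (CPM, linear axis from 0 with its own scale per gene) in VC+, VC- and D0 libraries, with circles for replicate 1, squares for replicate 2 and bars for the mean of 2. Nfib is highest and Nfix lowest in D0, while Nfic separates by replicate, with every replicate 2 library above every replicate 1 library.

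Summed over the 4 genes, NFI expression was nearly level across the 6 libraries, at 221 and 189 CPM in VC+, 197 and 195 CPM in VC-, and 211 and 192 CPM in D0. The make-up of that sum differed. Nfib supplied 16.0% and 7.99% of the family's reads in VC+ cells and 13.4% and 8.89% in VC- cells, against 25.1% and 18.9% in D0. Nfix supplied 45.9% and 45.3% in VC+ and 44.4% and 42.8% in VC-, against 32.1% and 35.5% in D0. Nfia ranged from 28.3% to 35.4% and Nfic from 7.37% to 18.7%. These shares are not corrected for transcript length, so only their differences between libraries can be read.

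**Figure D2:**
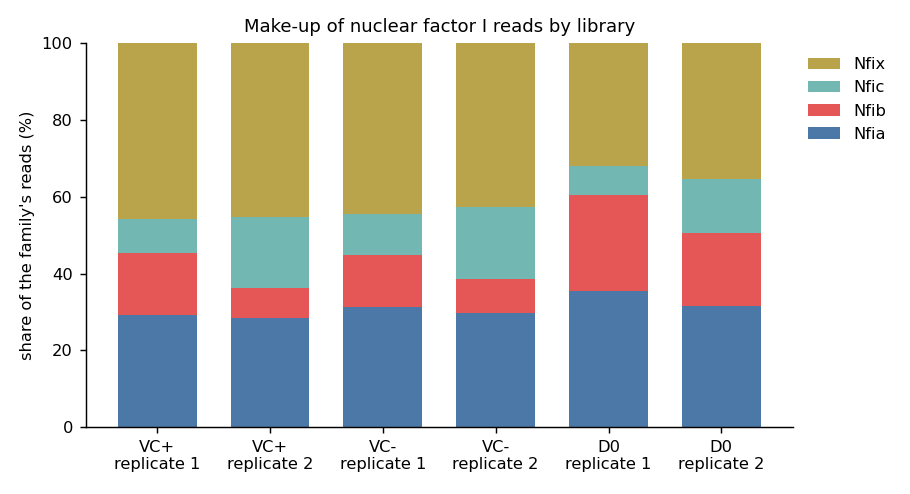
Share of the family's reads (%) taken by each NFI gene in each library, as stacked bars that add up to 100%. The Nfib part is 25.1% and 18.9% in the D0 libraries and 7.99% to 16.0% in the 4 differentiated libraries, and the Nfix part is 42.8% to 45.9% in differentiated cells and 32.1% and 35.5% in D0.

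The 4 members differed little between VC+ and VC- cells, and none passed the test. Differences are log2 values of CPM + 0.5 from limma over all genes, with the standard error (SE) and a Benjamini-Hochberg adjusted p. VC+ cells differed from VC- cells by -0.02 (SE 0.23) for Nfia, 0.11 (SE 0.50) for Nfib, -0.10 (SE 0.49) for Nfic and 0.12 (SE 0.20) for Nfix, each with an adjusted p of 1.00 in limma. No member's VC+ and VC- libraries were separated, while 16.0% of all genes tested were (8.15% higher and 7.82% lower in VC+). The test called 0 of the 11823 genes (0.0%), with 62 at an unadjusted p under 0.05. This limma fit, also used against D0, held no replicate term, so differences between the replicate sets entered its spread. With a replicate term limma called 0, with 404 at an unadjusted p under 0.05. EdgeR on recovered reads called 0, while DESeq2 called 6 (0.0507%), none of them an NFI gene. An exact permutation test of 2 libraries against 2 cannot go below p = 0.333, so none was run.

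Within replicates the direction of the vitamin C difference was shared for 2 of the 4 members. Nfix was higher in VC+ than in VC- cells by 0.21 in replicate 1 and 0.03 in replicate 2, and Nfic differed by -0.13 and -0.07. Nfia differed by 0.07 in replicate 1 and -0.12 in replicate 2. Nfib differed by 0.41 and -0.20, with VC+ over VC- read ratios of 1.34 (exact 95% interval 1.13 to 1.59) and 0.869 (0.742 to 1.02). These intervals cover read counting in 1 library against 1 and not the spread between libraries. Over all genes tested, 30.0% were higher and 26.4% lower with vitamin C in both replicates.

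The VC+ and VC- libraries of a replicate share a number and a D label, and a limma fit with a replicate term narrows the intervals. In that fit the 95% interval of the VC+ over VC- ratio was 0.748 to 1.29 for Nfia, 0.703 to 1.65 for Nfib, 0.678 to 1.28 for Nfic and 0.826 to 1.44 for Nfix, again with an adjusted p of 1.00 for each. These intervals contain no change, and they do not show that the members were equal. Without the replicate term the sign of each difference turned when certain single libraries were left out. Such a fit sets 1 replicate of a group against 2 of the other, so the difference between replicate sets enters it. Nfia turned to 0.023 without VC- replicate 1 and to 0.12 without VC+ replicate 2. Nfib turned to -0.50 without VC+ replicate 1 and to -0.19 without VC- replicate 2, where Nfic turned to 0.31 and 0.28. Nfix turned to -0.00089 without VC+ replicate 1.

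**Figure D3:**
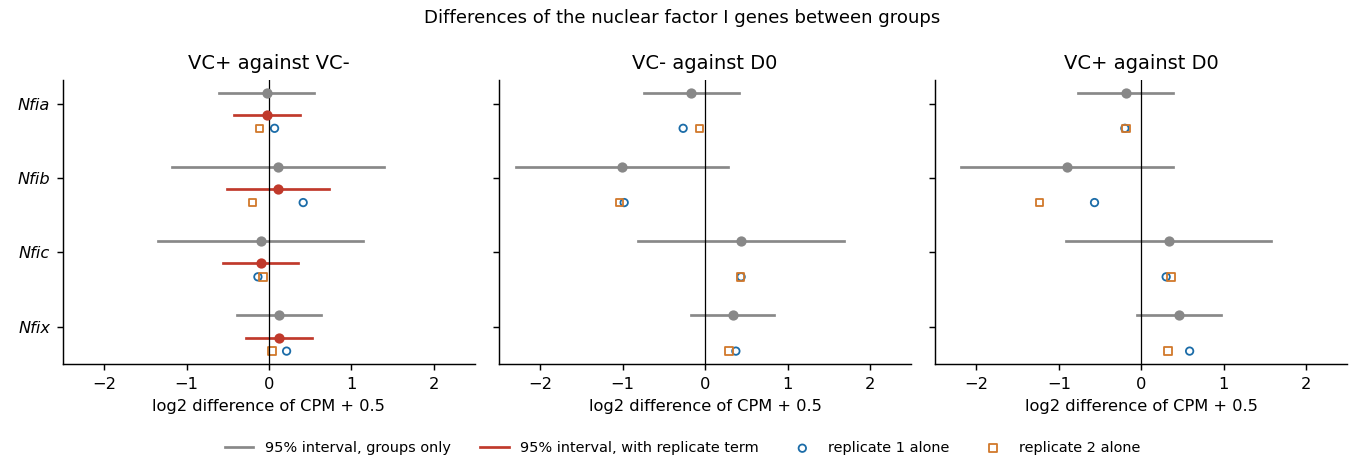
Log2 differences of CPM + 0.5 for each NFI gene in 3 comparisons, as the limma estimate with its 95% interval from the fit of groups only (grey) and, for VC+ against VC-, from the fit with a replicate term (red), beside the difference within each replicate (open circles and squares). All intervals drawn cross 0, while those with a replicate term against D0, not drawn because only the replicate number is shared there, did not contain 0 for Nfib in either comparison or for Nfix in VC+ (limma adjusted p 0.253, 0.204 and 0.277).

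Between differentiated and stem cells the members went in different directions, and again none passed the test. In VC- cells against D0, Nfib differed by -1.01 (SE 0.50, 95% interval -2.30 to 0.28), the largest difference of the 4, with -0.98 in replicate 1 and -1.04 in replicate 2. Nfix differed by 0.33 (SE 0.20, interval -0.18 to 0.84), with 0.37 and 0.29 by replicate. Nfic differed by 0.43 (SE 0.49, interval -0.81 to 1.68), with 0.44 and 0.43 by replicate. The Nfic value was 0.045 without D0 replicate 1, 0.047 without VC- replicate 2, and 0.82 without either VC- replicate 1 or D0 replicate 2. Omissions here and below also set 1 replicate of a group against 2 of the other. Nfia differed by -0.17 (SE 0.23, interval -0.74 to 0.41), with -0.27 and -0.07 by replicate, and by -0.02 without D0 replicate 1 and -0.31 without D0 replicate 2. Every limma adjusted p was 1.00. The 2 members whose groups were separated, Nfib lower and Nfix higher, stand against 13.2% of all genes tested that were separated and lower and 13.8% that were separated and higher. A larger absolute difference than that of Nfib was found in 10.6% of genes. In both replicates Nfic and Nfix were higher and Nfia and Nfib lower, beside 28.6% of all genes that were higher and 29.5% that were lower in both.

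VC+ cells against D0 gave values of the same sign for each member. This comparison shares its D0 libraries with the preceding one, so the 2 sets of values are not independent. Nfib differed by -0.90 (SE 0.50, interval -2.19 to 0.39), with -0.57 and -1.24 by replicate, and the value was -0.30 without VC+ replicate 2 and -1.51 without VC+ replicate 1. Nfix differed by 0.46 (SE 0.20, interval -0.05 to 0.96), with 0.59 and 0.33 by replicate. Nfic differed by 0.33 (SE 0.49), with 0.30 and 0.36 by replicate, and turned to -0.058 without D0 replicate 1 and to -0.087 without VC+ replicate 2. Nfia differed by -0.19 (SE 0.23), with -0.20 and -0.18. The limma adjusted p was 1.00 for all 4.

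Against D0, limma called 0 of 11823 genes (0.0%) in VC- cells, with 382 at an unadjusted p under 0.05, and 0 (0.0%) in VC+ cells, with 507. EdgeR on recovered reads called 0 in both. DESeq2 called 71 genes (0.601%) in VC- cells and 137 (1.16%) in VC+ cells. No NFI gene was among them, the smallest DESeq2 adjusted p being 0.395 for Nfix in VC+ cells. For VC+ cells 27.4% of genes tested were separated from D0, with 13.2% lower, as Nfib was, and 14.2% higher, as Nfix was. In both replicates 28.6% of genes were higher in VC+ cells than in D0, as Nfic and Nfix were, and 29.0% were lower, as Nfia and Nfib were.

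Markers of other cell states also differed between differentiated cells and D0. The 9 neural stem cell markers had a median difference of -0.70 for VC- against D0 and -0.99 for VC+ against D0. By replicate the medians were -0.15 and -1.11 for VC-, and -1.10 and -1.17 for VC+. In both replicates 4 were lower and 1 (Sox2) higher in VC-, and 5 were lower and 0 higher in VC+. Lower in both were 29.5% and 29.0% of all genes tested. None of the 9 passed in limma. DESeq2, which called 0.601% and 1.16% of all genes tested, called 1 of the 9 lower in each. These were Mki67, a proliferation marker, in VC- cells (-1.86, DESeq2 adjusted p 0.0296) and Nes, the stem cell intermediate filament nestin, in VC+ cells (-1.98, DESeq2 adjusted p 1.63e-05), both named after their values were seen. Mki67 stood at 83.1 and 42.7 CPM in VC+ and 62.0 and 38.1 CPM in VC-, against 179 and 177 CPM in D0. Of 10 oligodendrocyte lineage markers DESeq2 called 3 higher in each comparison, beside 0.601% (VC-) and 1.16% (VC+) of all genes tested, called in either direction. The list's median differences were 2.56 for VC- and 2.79 for VC+ against D0, against 0.01 over all genes in each. By replicate these medians were 4.03 and 1.22 for VC-, and 3.74 and 1.31 for VC+. In both replicates 8 markers were higher and 1 lower in VC-, and 7 were higher and 1 lower in VC+. The part of these markers in the Nfib and Nfix differences was not tested.

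The ratio of 2 members within a library does not depend on how libraries are scaled. The pairs were chosen after their values were seen and are given without a test. The Nfib to Nfix ratio in CPM was 0.349 and 0.176 in VC+ cells and 0.302 and 0.208 in VC- cells, against 0.782 and 0.531 in D0. In VC- cells it was 0.387 times that of D0 in replicate 1 (conditional exact 95% interval 0.316 to 0.473) and 0.391 times in replicate 2 (0.333 to 0.460). The ratio was lower than in D0 by nearly the same factor in both replicates, although its level differed between them. In VC+ cells it was 0.447 times (0.374 to 0.533) and 0.332 times (0.283 to 0.390) that of D0.

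The Nfia to Nfix ratio was 0.639 and 0.625 in VC+ cells, 0.707 and 0.694 in VC- cells, and 1.10 and 0.892 in D0. The Nfib to Nfic ratio was 1.85 and 0.435 in VC+ cells, 1.25 and 0.476 in VC- cells, and 3.41 and 1.34 in D0. It was lower than in D0 within each replicate, but its VC+ and D0 libraries overlapped. How often a ratio separates the groups for gene pairs other than these was not measured. The VC+ ratio of Nfia to Nfix was 0.904 times that of VC- cells in replicate 1 (0.778 to 1.05). In replicate 2 it was 0.900 times (0.807 to 1.00), and both intervals contain a ratio of no change. Against D0 the VC- ratio of Nfia to Nfix was 0.640 (0.543 to 0.754) and 0.778 (0.691 to 0.877) times as large. These intervals, too, cover read counting only.

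Between the replicate sets 2 members passed the test, which treats the libraries of a set as independent. There is only 1 set of each number, so these p-values do not extend to other sets. The sets also differ in depth and, in differentiated cells, in D label, and these cannot be told apart here. In the limma fit with groups and a replicate term, replicate 2 differed from replicate 1 by 0.79 for Nfic (SE 0.14, adjusted p 0.0220) and by -0.78 for Nfib (SE 0.19, adjusted p 0.0456). Nfia differed by -0.22 (adjusted p 0.231) and Nfix by -0.10 (adjusted p 0.568). The same term called 2971 of 11823 genes, or 25.1%, of which 17.4% of all genes were higher and 7.7% lower in replicate 2. Microglia and fibroblast markers were higher and oligodendrocyte markers lower in the differentiated libraries of that replicate, and their part in the Nfic and Nfib differences was not tested.

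The genes with the profile most like each member were ranked by the root mean square difference of log2(CPM + 0.5), each gene centred on its mean over the 6 libraries, among 9816 other genes with a mean of at least 5 CPM. These distances describe libraries that share their replicate sets and depths. Nearest to Nfia were Rnf40, Ubr2 and Neurl4, at 0.022, 0.027 and 0.032 against a median of 0.343 over all genes. Nearest to Nfib were Fam111a, Dscc1 and Mis18a, at 0.113, 0.131 and 0.133 against a median of 0.663. Fam111a, a protease found at replication forks in human cells, stood at 59.9 and 28.7 CPM in VC+, 44.8 and 35.3 CPM in VC-, and 108 and 70.0 CPM in D0.

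Nearest to Nfic were Wrap53, Gnl1 and Rnf181, at 0.050, 0.070 and 0.074 against a median of 0.605. Nearest to Nfix were Mib2, Kctd17 and Slx1b, at 0.053, 0.056 and 0.058 against a median of 0.399. Mib2, a ubiquitin ligase of Notch ligands, stood at 149 and 123 CPM in VC+, 133 and 134 CPM in VC-, and 98.2 and 101 CPM in D0. Between members the closest pair was Nfia and Nfix at 0.291, below both of their medians over all genes. Nfix stood at rank 4108 for Nfia and Nfia at rank 2706 for Nfix. These members had the narrowest ranges, 0.48 and 0.59 on the log2 scale, which by itself keeps this distance small. Against D0 they differed in opposite directions, Nfia lower and Nfix higher in both replicates. Nfia stood at rank 1728 for Nfib (0.485) and Nfix at rank 2330 for Nfic (0.463). The most distant pair was Nfib and Nfic at 1.03, which put Nfic at rank 7719 for Nfib and Nfib at rank 8487 for Nfic.

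Genes known to act upstream of or together with NFI factors, mainly from mouse and chick work, gave no called difference in any of the 3 comparisons. Of 12 such genes 11 were tested, and 0 passed in either direction in limma or DESeq2. Over all genes tested limma called 0.0% in each comparison. DESeq2 called 0.0507% for VC+ against VC-, 0.601% for VC- against D0 and 1.16% for VC+ against D0. With shares this low, 0 of 11 is no result about these genes. The median difference was 0.02 for VC+ against VC-, -0.17 for VC- against D0 and -0.10 for VC+ against D0, against 0.02, 0.01 and 0.01 over all genes tested. By replicate the list's medians differed in sign, at -0.33 in replicate 1 and 0.12 in replicate 2 for VC+ against VC-, and at 0.08 and -0.28 for VC- against D0. Sox9, which induces Nfia in the spinal cord, stood at 99.5 and 102.8 CPM in VC+, 129 and 76.7 CPM in VC-, and 78.4 and 70.7 CPM in D0. Both VC+ libraries lay above both D0 libraries, as in 14.2% of all genes tested, while the VC- libraries overlapped with each of the other groups. Notch1, a receptor whose signal permits Nfia expression, stood at 597 and 242 CPM in VC+ and 525 and 258 CPM in VC-, against 716 and 664 CPM in D0. It was below D0 in all 4 differentiated libraries, with the lowest values in replicate 2. Separated from D0 and lower were 13.2% of all genes tested in VC- cells and 13.2% in VC+ cells, and the share with both was not counted.

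Among the other abundant members of that list, Rbpj, the DNA-binding partner of activated Notch, varied only from 76.1 to 90.8 CPM. Stat3, the transcription factor of gliogenic cytokines, ranged from 138 to 233 CPM. Dnmt1, the maintenance DNA methyltransferase that Nfia displaces from the Gfap promoter in mouse progenitors, stood at 158 and 88.1 CPM in VC+ and 126 and 83.2 CPM in VC-, against 171 and 129 CPM in D0. Olig2, an oligodendrocyte lineage factor that antagonises Nfia, stood at 485 and 55.8 CPM in VC+ and 765 and 61.6 CPM in VC-, against 419 and 127 CPM in D0. Every replicate 2 library of Olig2 lay below every replicate 1 library.

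Of 14 genes known as NFI targets 12 were tested, and 0 passed in either direction in limma in any comparison. DESeq2 called 1, Gfap, in VC+ cells against D0, where it called 1.16% of all genes tested. The list's median difference was -0.06 for VC+ against VC-, -0.29 for VC- against D0 and -0.53 for VC+ against D0, against 0.02, 0.01 and 0.01 over all genes tested. Within replicate 1 these medians were 0.07, 0.004 and -0.001, and within replicate 2 they were -0.10, -0.40 and -0.68. Higher in both replicates were 4, 3 and 3 of the 12 in these comparisons, and lower in both were 5, 6 and 6. Over all genes tested the shares higher in both were 30.0%, 28.6% and 28.6%, and those lower in both were 26.4%, 29.5% and 29.0%.

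Gfap, the astrocyte intermediate filament and a direct NFI target, stood at 684 and 2072 CPM in VC+ and 101 and 224 CPM in VC-, against 1.77 and 57.9 CPM in D0. Its groups did not overlap in any comparison. Over all genes tested, 16.0% did not overlap for VC+ against VC-, 26.9% for VC- against D0 and 27.4% for VC+ against D0. VC+ exceeded D0 by 6.69 (SE 1.61, limma adjusted p 1.00, DESeq2 adjusted p 0.00891), and VC+ exceeded VC- by 2.98 (SE 1.61, adjusted p 1.00 in both tools). Of 10 astrocyte markers 7 were higher and 1 was lower in VC+ than in VC- cells in both replicates, beside 30.0% and 26.4% of all genes tested. None of the 10 passed in limma or DESeq2, which called 0.0% and 0.0507% of all genes tested. Between the same groups the differences of the 4 NFI genes ran from -0.10 to 0.12, with SE of 0.20 to 0.50. With that spread the values do not show that the NFI genes were equal in the 2 groups.

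Mmd2, a joint target of Nfia and Sox9 in the mouse, stood at 185 and 50.8 CPM in VC+ and 129 and 18.3 CPM in VC-, against 50.1 and 17.5 CPM in D0. VC+ was above VC- and D0 in both replicates, with differences of 0.98 (SE 1.16) and 1.69 (SE 1.16). Zcchc24, a second joint target, went the other way, at 227 and 80.2 CPM in VC+ and 317 and 91.4 CPM in VC-, against 343 and 125 CPM in D0. It was lower in VC+ than in D0 by -0.62 (SE 0.88), without passing the test.

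Fabp7, the brain fatty acid binding protein of radial glia, stood at 2016 and 536 CPM in VC+ and 2152 and 468 CPM in VC-, against 1961 and 768 CPM in D0. Slc1a3, the glial glutamate transporter GLAST, stood at 545 and 476 CPM in VC+ and 421 and 441 CPM in VC-, against 606 and 852 CPM in D0. Both D0 libraries of Slc1a3 lay above all 4 differentiated libraries, and those of Fabp7 did not. Separated from D0 and lower, as Slc1a3 was, were 13.2% of all genes tested in VC- cells and 13.2% in VC+ cells. How many did both was not counted. Cdh2 and Efnb1, an adhesion protein and an ephrin bound by NFI in mouse cerebellar granule neurons, ranged from 163 to 388 CPM and from 28.9 to 185 CPM.

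Hes1 and Ezh2 are progenitor genes that NFI factors repress in the mouse forebrain. Hes1 stood at 15.7 and 28.2 CPM in VC+ and 13.1 and 42.9 CPM in VC-, against 20.6 and 50.5 CPM in D0. Ezh2 stood at 68.1 and 22.9 CPM in VC+ and 74.6 and 23.0 CPM in VC-, against 90.0 and 43.5 CPM in D0. Both were lower in VC+ and in VC- than in D0 within each replicate. The differences of VC- from D0 were -0.43 (SE 0.74) for Hes1 and -0.59 (SE 0.81) for Ezh2, and neither passed.

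**Figure D4:**
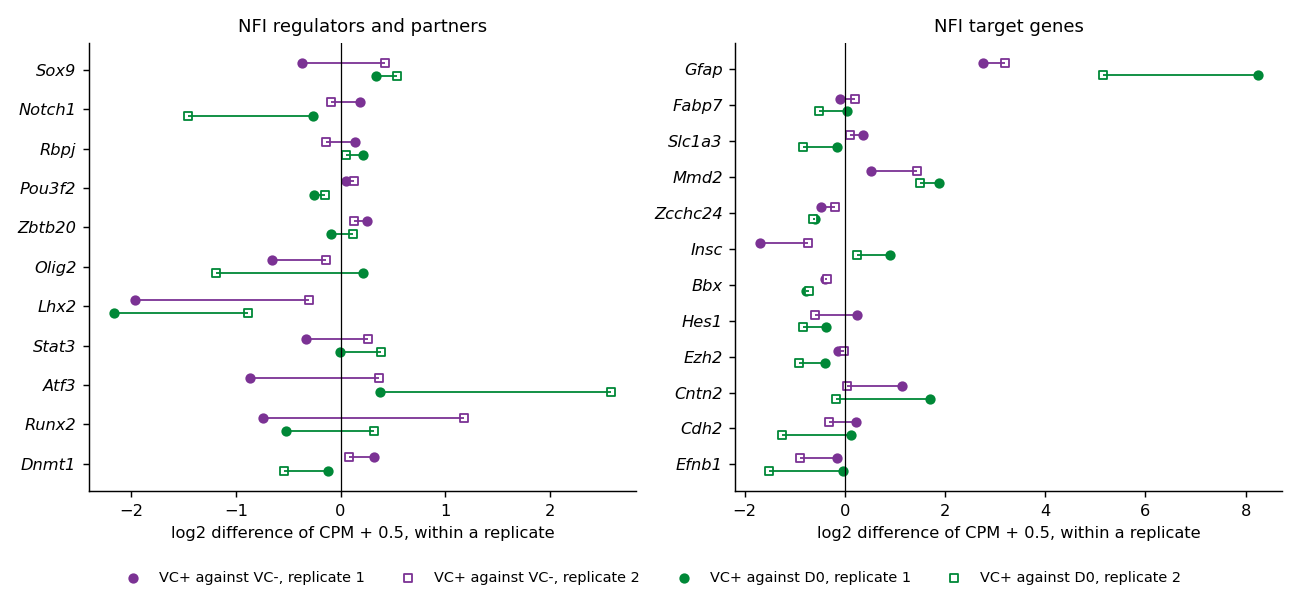
Log2 differences of CPM + 0.5 within replicate 1 (circles) and within replicate 2 (squares) for VC+ against VC- (purple) and VC+ against D0 (green), for the tested genes of the NFI regulator and partner list (left) and of the NFI target list (right), with a line joining the replicates. Gfap lies far to the right in both comparisons, while Rbpj and Pou3f2 lie near 0.

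A TTGGC element on either strand was found in the promoter windows of 9 of the 11 NFI target genes that had one (81.8%), of 4 of the 9 regulators and partners (44.4%), and of 40.3% of all windows. None of these held the whole palindrome. The targets were collected from the literature as NFI targets, and the match is a description of letters only. The element nearest the start is shown for 5 targets described above, from the same 250-base windows (RefSeq, GRCr8 build, gene strand, 5′ to 3′), with the element in capitals.
Mmd2: agccgggcgaTTGGCagcgtgcgcc
Fabp7: attcaattaaTTGGCtttttgccca
Slc1a3: cttctgttgtGCCAAgtaatcaata
Hes1: cttcctcccaTTGGCtgaaagttac
Ezh2: tgctggggggGCCAAataaaagcga
They lie at chr12:17076162-17076186 (Mmd2, plus strand, 79 bases before the start), chr20:37669536-37669560 (Fabp7, plus, 60 bases), chr2:59557878-59557902 (Slc1a3, minus, 84 bases), chr11:84213171-84213195 (Hes1, minus, 140 bases) and chr4:77687194-77687218 (Ezh2, minus, 25 bases). Gfap was matched to a window that held no element in these 250 bases.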

How the data were processed

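The authors deposited CPM per gene for 6 RNA-seq libraries; per the labels' protocols these were TruSeq libraries read as 75 bp single ends. The submitters' processing notes name STAR 2.5.1, edgeR 3.12.1 and the rn5 build without stating their roles, and the counter, annotation and gene filter are not given in the sources used here. Within each library all values were integer multiples of a single step (relative tolerance 1e-06), and division by it gave whole reads for 100% of values. Listed genes held 60.2% to 67.7% of the library sizes behind the authors' scaling. A count of 0 allows up to 3 reads, or 0.140 to 0.378 CPM. Floors and read intervals cover counting error only.

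Limma 3.58.1 (R 4.3.3, trend, two-sided, Benjamini-Hochberg over all genes) was run on log2(CPM + 0.5) of the 11823 genes that reached 1 CPM in 2 or more libraries, with 3 groups in 1 fit and 3 residual degrees of freedom. Fold changes on this scale understate those of low genes. Alternatives were other pseudocounts, filters and scalings, a replicate term, count models of the recovered reads (edgeR 4.0.16, DESeq2 1.42.0), fits of only the compared groups, and omission of single libraries. Code was tested on simulated counts. Deviations of replicates from their group mean correlated at 0.914 across genes between VC+ and VC- libraries, which share a D label.

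The NFI genes and all lists were chosen with earlier results of these data known. The text names the 4 members, the 6 most abundant members of the regulator and target lists plus a fixed panel, the 2 most abundant of each marker list and the 3 genes nearest each member. Pou3f2 was named in a caption after its values were seen. The genes Apcdd1, Gabra6 and Ski were not analysed here for expression. Other samples of the series (18 of 24) were not analysed here. RefSeq sequences are of the GRCr8 build, not the authors' build. Where a gene had several windows the first was used.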

Additional observations from a re-analysis of the deposited data

How the results depend on the processing

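Under 11 alternatives that left out no single replicate, 1 of which fitted only the 2 groups compared, all 132 member differences kept their sign and none passed the test. The other filters, the limma replicate term and the fit of only the compared groups leave the difference itself unchanged. Its sign could not turn there, so those settings say nothing about its stability. With 1 library left out, 39 of 48 kept their sign and 9 turned. A group then left with 1 library takes its spread from the rest. The replicates are unbalanced in such a fit, so the difference between replicate sets enters the values, and its part was not tested. For VC+ against VC- the differences ran from -0.16 to 0.12 for Nfia, -0.50 to 0.71 for Nfib, -0.52 to 0.31 for Nfic and -0.00089 to 0.25 for Nfix. For VC- against D0 they ran from -0.31 to -0.02, -1.31 to -0.71, 0.04 to 0.82 and 0.30 to 0.37, and for VC+ against D0 from -0.34 to -0.04, -1.51 to -0.30, -0.087 to 0.75 and 0.33 to 0.58. The count of genes called was 0 in each comparison throughout, except in DESeq2, which called 6 for VC+ against VC-, 71 for VC- against D0 and 137 for VC+ against D0. With the replicate block, limma called 0 genes in all 3 comparisons, with 404, 1550 and 1885 at an unadjusted p under 0.05. For the comparisons with D0 only the replicate number is shared, and deviations correlated at 0.730 (VC-) and 0.688 (VC+). In that block fit Nfib differed by -1.01 (95% interval -1.63 to -0.39, limma adjusted p 0.253) in VC- and by -0.90 (-1.52 to -0.29, adjusted p 0.204) in VC+, and Nfix by 0.46 (0.06 to 0.86, adjusted p 0.277) in VC+. The replicate block changed no call. With 2 libraries per group, precision is limited in every test.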
